A study of Homo sapiens with 12 samples.

Results

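The DNA replication and S-phase genes examined here are a list of 43 genes, out of the 58302 genes of the RNA-seq count table. They were chosen by name for their function in replication, with earlier results of these data known. Shares of members set beside shares of all genes are therefore descriptions and not tests of the list. They comprised 10 origin licensing genes, 6 helicase activation genes, 7 polymerase subunits, 7 clamp, clamp loader and single-strand binding genes, 2 Okazaki fragment maturation genes, 4 nucleotide supply genes, 5 G1/S regulators and 2 maintenance methylation genes. All 43 passed the filter on low counts, which left 15826 genes to be tested.

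The series concerned oral squamous cell carcinoma (OSCC) cells with and without rapamycin, used as a model of induced autophagy. RNA-seq comprised 4 libraries, 2 from cells given 100 nM rapamycin and 2 from untreated controls. Methylated RNA immunoprecipitation sequencing (MeRIP-seq), which enriches RNA fragments that carry N6-methyladenosine (m6A), was made in HSC3 and CAL33, both OSCC lines, each with 100 nM rapamycin for 3 days and without. Every line and treatment had 1 immunoprecipitated and 1 input library, 8 in all. In the MeRIP-seq titles number 1 marked HSC3 and number 2 marked CAL33, whereas the cell line labels of RNA-seq gave HSC3 for both rapamycin libraries and CAL33 for both controls. The RNA-seq libraries are therefore called by treatment and number, and, as labelled, treatment and cell line cannot be told apart in them. Nothing stated that the libraries came from separate cultures, so p-values reflect only the spread between these libraries, with variance information shared across genes.

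RNA-seq totals ranged from 18492273 to 23763098 counts, and mitochondrial genes took between 5.71% and 7.94% of a library. Of 11 markers of squamous epithelium, 9 reached 1 CPM (the read count scaled to library size) in every library, and their summed level was 1445 and 1848 CPM in rapamycin 1 and control 1 against 4051 and 5845 CPM in rapamycin 2 and control 2. KRT14, a basal keratin, had 0 counts in both libraries numbered 1. Of the markers of other cells, 1 of 6 fibroblast, 0 of 6 leukocyte and 0 of 4 endothelial genes reached 1 CPM in every library. The fibroblast markers summed to 46.7 and 28.5 CPM with rapamycin against 35.8 and 8.79 CPM in controls. COL1A1 gave most of this, and COL1A2, COL3A1 and DCN had 0 counts in every library. The endothelial markers summed to 45.4 and 30.8 CPM in the libraries numbered 2 against 1.42 and 1.71 CPM in those numbered 1. In number 2 CDH5 alone gave 41.6 and 25.6 CPM, and KDR had 0 counts in every library. The sums thus rest on few genes, and the part of other cells in the results below was not tested.

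DNA replication begins with licensing, in which the origin recognition complex, CDC6 and CDT1 load the MCM2-7 helicase onto DNA in G1. At the start of S phase, CDC45 and the GINS complex join MCM2-7 to form the active helicase, and DNA polymerases, the sliding clamp PCNA and its loader RFC copy both strands. E2F transcription factors, held back by the retinoblastoma proteins until cyclin-dependent kinases act, drive many of these genes as cells enter S phase. Rapamycin inhibits mTOR complex 1, a kinase complex that promotes protein synthesis and cell growth and restrains autophagy. In a bulk culture, fewer cells in S phase and less mRNA in each such cell cannot be told apart.

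E2F factors are known to bind short GC-rich letters close to transcription start sites, and the RefSeq promoter windows (GRCh38.p14, 250 bases before to 50 bases after each start) were searched for TTTCCCGC, TTTCGCGC, TTTGCCGC and TTTGGCGC on either strand, where matches may overlap each other. A window was found for 36 of the 43 genes, the others being MCM4, MCM5, GINS4, POLD3, RPA2, RPA3 and CCNE2. The letters stood in 22 of the 36 windows (61.1%), against 3.33% of all 27305 windows and 5.11% of the 11397 windows of tested genes. CCAAT, on either strand, stood in 20 of the 36 (55.6%), against 35.7% of all windows and 36.5% of those of tested genes. A match is a description of letters and not a site. The windows of ORC1 (chr1:52404374-52404673) and UHRF1 (chr19:4909251-4909550) lay inside the RefSeq gene span, away from the gene start used elsewhere here. The stretches around the match are shown for the 8 genes with values given in full below whose match ended before the start site, each 5′ to 3′ on the gene's own strand with up to 30 bases on either side and the match in capitals.
POLA2, chr11:65261879-65261946, plus strand: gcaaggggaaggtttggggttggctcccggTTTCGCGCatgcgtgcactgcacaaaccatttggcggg
PCNA, chr20:5126644-5126711, minus strand: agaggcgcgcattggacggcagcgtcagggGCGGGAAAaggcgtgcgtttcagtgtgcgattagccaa
RFC3, chr13:33818064-33818131, plus strand: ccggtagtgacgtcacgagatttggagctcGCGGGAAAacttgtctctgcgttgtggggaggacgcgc
LIG1, chr19:48170421-48170488, minus strand: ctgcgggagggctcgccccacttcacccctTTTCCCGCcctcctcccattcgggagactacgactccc
TYMS, chr18:657584-657651, plus strand: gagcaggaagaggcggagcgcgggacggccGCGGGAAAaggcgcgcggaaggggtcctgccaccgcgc
CDC25A, chr3:48188424-48188491, minus strand: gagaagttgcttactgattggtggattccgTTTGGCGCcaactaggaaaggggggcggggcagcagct
E2F1, chr20:33686386-33686448, minus strand: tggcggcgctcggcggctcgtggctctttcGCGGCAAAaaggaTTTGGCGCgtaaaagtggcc
UHRF1, chr19:4909457-4909500, plus strand: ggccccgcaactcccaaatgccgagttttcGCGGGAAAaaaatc
The match began 59 bases before the start in PCNA, 55 in RFC3, 53 in POLA2, 44 in CDC25A and 39 in TYMS, and E2F1 held 2 matches, at 33 and 20 bases before its start.

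The main question was whether mRNA of these genes differed between cells with and without rapamycin. The 43 genes together took 0.685% and 0.799% of all counts in control 1 and control 2, against 0.515% and 0.302% in rapamycin 1 and rapamycin 2. Their fitted log2 fold change (rapamycin over control) had a median of -0.87, against 0.06 for all genes tested, and was below 0 for 41 of the 43. Both rapamycin libraries lay below both controls for 29 of the 43 genes (67.4%), against 16.5% of all genes tested, and no gene had both rapamycin libraries above both controls. RPA3 and CCNE1 were the only members with a fitted change above 0.

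Without the replicate number in the model, edgeR's quasi-likelihood test called 0 of the 43 genes at an adjusted p under 0.05, with every adjusted p at 0.9997, and called 0% of all genes tested. At an unadjusted p under 0.05, 6 members were lower (ORC1, MCM3, MCM4, MCM10, PCNA and RFC3) and 0 were higher, where 1.45% of all genes were lower. DESeq2 without the replicate number called ORC1 alone lower (adjusted p = 0.0436), where it called 0.126% of all genes lower. Libraries of the same number resembled each other, and the edgeR common dispersion was 0.636 without the number and 0.0610 with it. When the replicate number entered as a block (the paired fit), edgeR called 17 of the 43 genes lower (39.5%) and 0 higher, against 3.5% of all genes lower and 4.65% higher, and DESeq2 called 11 lower, against 2.54% of all genes. DESeq2 gave no adjusted p for 6750 of the 15826 genes without the block and 3682 with it, against 1 and 0 members. Its shares count those genes as not called and so are lower than among genes with an adjusted p. The median in the paired fit by edgeR was -0.86, against 0.05 for all genes. With upper-quartile in place of TMM scaling, the paired fit called 10 members lower, against 2.27% of all genes, and the share of all called genes that were lower went from 42.95% to 30.9%. The unpaired median moved to -0.47 without rapamycin 2 and to -1.18 without rapamycin 1. In what follows, fell is used of genes called in the paired fit by edgeR, and changes are its log2 fold change ± standard error (SE) with the adjusted p over all genes tested. The paired fit has few residual degrees of freedom, so its SE and p draw on variance pooled over genes. The SE was taken from the fold change and the F statistic and is not the spread between a gene's own pairs. MCM4, for example, differed by -0.81 and -1.87 in the numbered pairs, with an SE of 0.29.

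**Figure D1:**
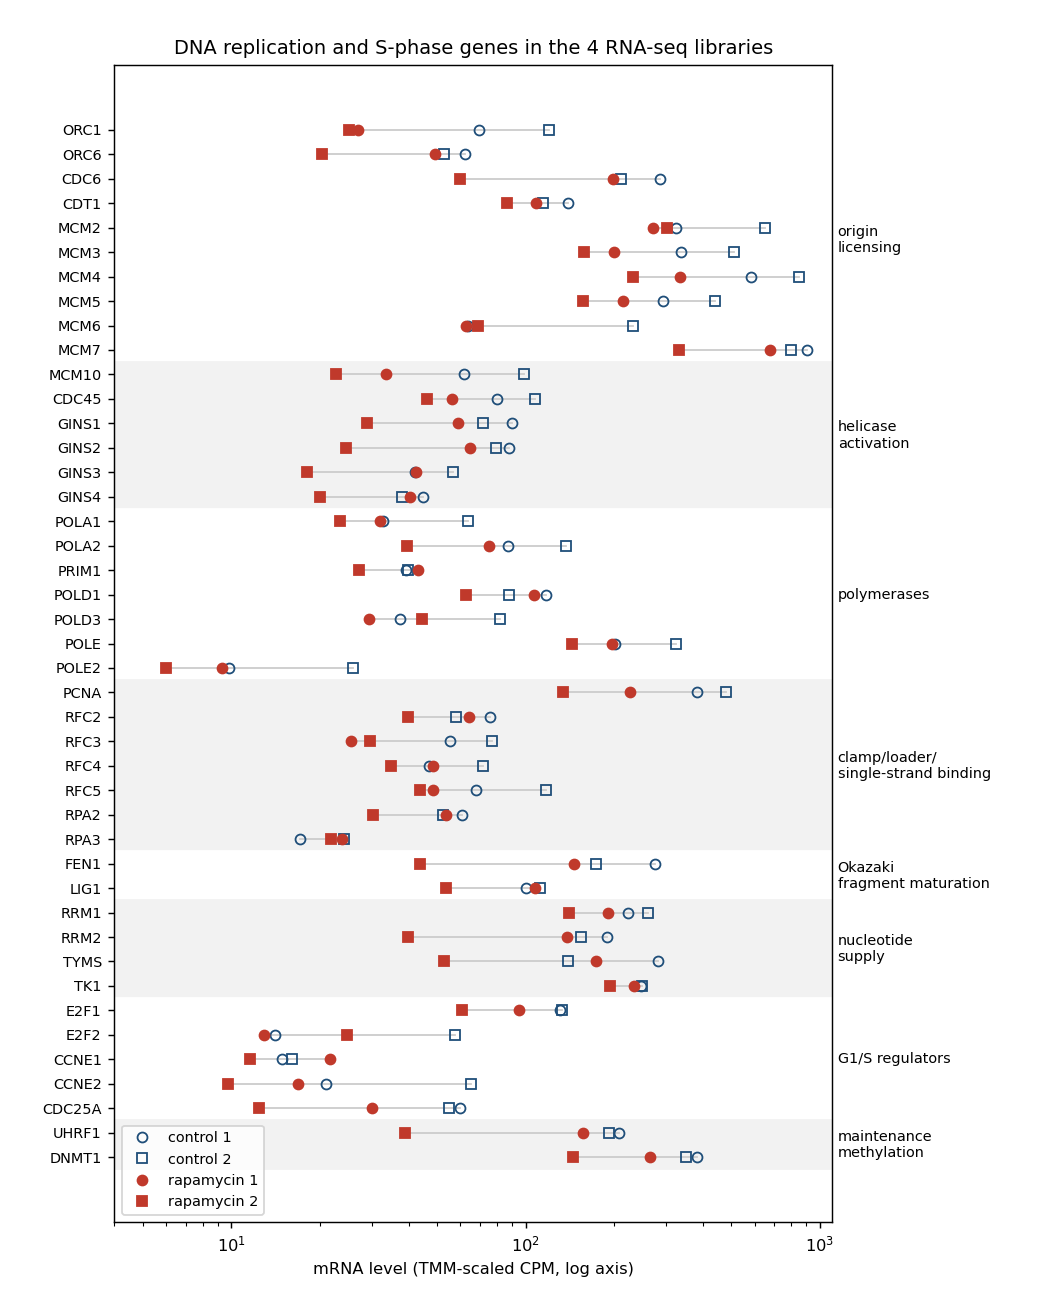
Level of each of the 43 genes in the 4 RNA-seq libraries (TMM-scaled CPM, log axis, grouped by role). Open symbols are controls, filled symbols rapamycin, circles number 1 and squares number 2. Rapamycin 2 (filled squares) is the lowest library for most genes, and in 29 rows both filled symbols lie left of both open ones. Levels are not scaled by transcript length, so rows are not compared with each other.

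Of the 10 origin licensing genes, 5 fell (ORC1, MCM3, MCM4, CDC6 and MCM5), and 9 of the 10 had both rapamycin libraries below both controls, with MCM6 as the exception. ORC1, the largest subunit of the origin recognition complex (ENSG00000085840, GRCh38.p14 chr1:52372829-52409503), measured 26.9 and 25.1 CPM in rapamycin 1 and 2 against 69.4 and 120 CPM in control 1 and 2. The groups stood well apart, with rapamycin 2.58-fold lower in the pair numbered 1 and 4.77-fold lower in the pair numbered 2. The paired change of ORC1 was -1.81 ± 0.29 (adjusted p = 0.000781), the strongest among the 43 genes. Part of ORC1 overlaps PRPF38A on the other strand, and whether counting used strand is not given in the sources used here.

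MCM4, a subunit of the MCM2-7 helicase, measured 334 and 232 CPM in rapamycin 1 and 2 against 584 and 847 CPM in control 1 and 2, so that the groups did not overlap. Its change was -1.34 ± 0.29 (adjusted p = 0.00634). MCM3 changed by -1.22 (adjusted p = 0.00781), CDC6, which loads the helicase, by -1.17 (0.0237) and MCM5 by -0.97 (0.0341, and 0.0634 by DESeq2 in the paired fit). ORC6, MCM2, MCM6, MCM7 and CDT1 had changes between -0.88 and -0.38 and did not pass the test. MCM6 was at 62.8, 69.1 and 63.5 CPM in rapamycin 1, rapamycin 2 and control 1 and at 231 CPM in control 2, so its difference rested on 1 library. Across the MCM2-7 subunits the change ranged from -1.34 for MCM4 to -0.68 for MCM2.

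Of the 6 helicase activation genes, MCM10, GINS2, GINS1 and CDC45 fell. MCM10, which helps the loaded helicase to open the double helix (ENSG00000065328, chr10:13161558-13211110), measured 33.4 and 22.6 CPM in rapamycin 1 and 2 against 61.6 and 98.4 CPM in control 1 and 2. Its change was -1.5 ± 0.31 (adjusted p = 0.00623), and the groups did not overlap. GINS1, a subunit of the GINS complex, measured 59.0 and 29.0 CPM with rapamycin against 89.6 and 71.8 CPM in controls. It changed by -0.95 ± 0.28 (adjusted p = 0.0336), with an adjusted p of 0.0709 by DESeq2 and 0.0562 with upper-quartile scaling, both paired. GINS2 changed by -1.06 (0.0375) and CDC45 by -0.86 (0.0488), with adjusted p of 0.101 and 0.103 by DESeq2 in the paired fit. GINS3 and GINS4 did not pass the test, and GINS3 was at 42.3 CPM in rapamycin 1 against 42.2 CPM in control 1.

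None of the 7 polymerase genes passed the test by edgeR or DESeq2 in the paired fit, although 5 were lower at an unadjusted p under 0.05 by edgeR, as were 10.5% of all genes. POLA2, the accessory subunit of the polymerase that starts each new strand, measured 75.1 and 39.4 CPM in rapamycin 1 and 2 against 87.2 and 137 CPM in control 1 and 2, a change of -1.0 ± 0.35 (adjusted p = 0.101). POLE2, a subunit of the leading-strand polymerase, was at 9.26, 5.98 and 9.79 CPM in rapamycin 1, rapamycin 2 and control 1 and at 25.9 CPM in control 2, a change of -1.10 ± 0.47 (adjusted p = 0.164). The groups did not overlap for either gene, yet within the pair numbered 1 the levels differed little. The 7 genes had a median difference of -0.08 in that pair and -1.18 in the pair numbered 2. The primase subunit PRIM1 gave the change nearest 0 among them, at -0.20 ± 0.30 (adjusted p = 0.728).

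In the clamp and clamp loader group, PCNA, RFC3 and RFC5 fell and the other 4 of 7 did not pass the test. PCNA, the ring that holds polymerases on DNA (ENSG00000132646, chr20:5114953-5126622), measured 226 and 134 CPM in rapamycin 1 and 2 against 383 and 479 CPM in control 1 and 2, with no overlap. Its change was -1.30 ± 0.28 (adjusted p = 0.00727). The 3 annotated pseudogene copies of PCNA together held at most 0.0121% of its counts in any library. RFC3, a small subunit of the clamp loader, measured 25.4 and 29.6 CPM with rapamycin against 55.3 and 76.6 CPM in controls. It was 2.18-fold lower in the pair numbered 1 and 2.59-fold lower in the pair numbered 2, and its change was -1.25 ± 0.28 (adjusted p = 0.00758). RFC5 changed by -0.96 (0.0371), with an adjusted p of 0.0950 by DESeq2 in the paired fit, and it overlaps WSB2 on the other strand. RFC2 and RFC4 changed by -0.39 and -0.50. The single-strand binding subunits RPA2 and RPA3 changed by -0.48 and 0.17, and RPA3 lay between 17.1 and 24 CPM in all 4 libraries.

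Okazaki fragments are the short pieces of the lagging strand, which FEN1 trims and LIG1 joins. FEN1 (ENSG00000168496, chr11:61792911-61797238) measured 146 and 43.9 CPM in rapamycin 1 and 2 against 276 and 174 CPM in control 1 and 2. It was 1.89-fold lower in the pair numbered 1 and 3.96-fold lower in the pair numbered 2, a change of -1.45 ± 0.29 (adjusted p = 0.00388). FEN1 was also lower in number 2 than in number 1 under both treatments, and in the unpaired fit, where this difference counts as spread, its unadjusted p was 0.154. LIG1 measured 108 and 53.5 CPM with rapamycin against 100.4 and 112 CPM in controls, so its groups overlapped. Its change was -0.48 ± 0.29 (adjusted p = 0.326), and without rapamycin 2 the unpaired value was 0.0016 in place of -0.39. LIG1 was thus at similar levels in 3 libraries and low in rapamycin 2.

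Among the nucleotide supply genes TYMS and RRM2 fell and RRM1 and TK1 did not pass the test. TYMS, the thymidylate synthase, measured 173 and 52.8 CPM in rapamycin 1 and 2 against 282 and 139 CPM in control 1 and 2. Rapamycin 1 lay above control 2, so the groups overlapped, while within each pair rapamycin was lower. Its change was -1.05 ± 0.27 (adjusted p = 0.0159), and 10593 bases of the gene overlap ENOSF1 on the other strand. RRM2, the S-phase subunit of ribonucleotide reductase, measured 138 and 39.7 CPM with rapamycin against 189 and 154 CPM in controls. It changed by -1.20 ± 0.33 (adjusted p = 0.0398), with an adjusted p of 0.0575 by DESeq2 and 0.0660 with upper-quartile scaling, both paired. RRM1, the large subunit of the same enzyme, changed by -0.56 ± 0.26 (adjusted p = 0.198), and TK1, the thymidine kinase of the salvage route, by -0.22 ± 0.25 (adjusted p = 0.649).

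Of the G1/S regulators only CDC25A passed the test. CDC25A, a phosphatase that activates cyclin-dependent kinases at S-phase entry (ENSG00000164045, chr3:48157146-48188417), measured 30.1 and 12.5 CPM in rapamycin 1 and 2 against 59.7 and 55.0 CPM in control 1 and 2. It changed by -1.56 ± 0.32 (adjusted p = 0.00523), with the controls close together and both rapamycin libraries below them. E2F1 measured 94.9 and 60.9 CPM with rapamycin against 131 and 132 CPM in controls, a change of -0.79 ± 0.26 (adjusted p = 0.0605). Its groups did not overlap, but it did not pass the test. E2F2 measured 12.9 and 24.7 CPM with rapamycin against 14.0 and 57.3 CPM in controls. The cyclins of CDK2 differed in their values, with CCNE1 between 11.6 and 21.6 CPM in all libraries and CCNE2 at 16.9, 9.76 and 20.9 CPM in rapamycin 1, rapamycin 2 and control 1 against 65.3 CPM in control 2. CCNE2 had the widest difference of the 43 genes in the pair numbered 2, at 6.68-fold, and an adjusted p of 0.221.

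DNMT1 and UHRF1 copy DNA methylation onto the new strand behind the fork. DNMT1, the methyltransferase, measured 264 and 144 CPM in rapamycin 1 and 2 against 383 and 351 CPM in control 1 and 2, and fell by 0.91 ± 0.27 on the log2 scale (adjusted p = 0.0342, and 0.0587 with upper-quartile scaling). UHRF1, which recruits DNMT1 to DNA methylated on 1 strand, measured 157 and 38.9 CPM with rapamycin against 207 and 193 CPM in controls. Its groups did not overlap, but the pairs differed in size, 1.32-fold and 4.95-fold, and its change of -1.35 ± 0.46 did not pass the test (adjusted p = 0.136).

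**Figure D2:**
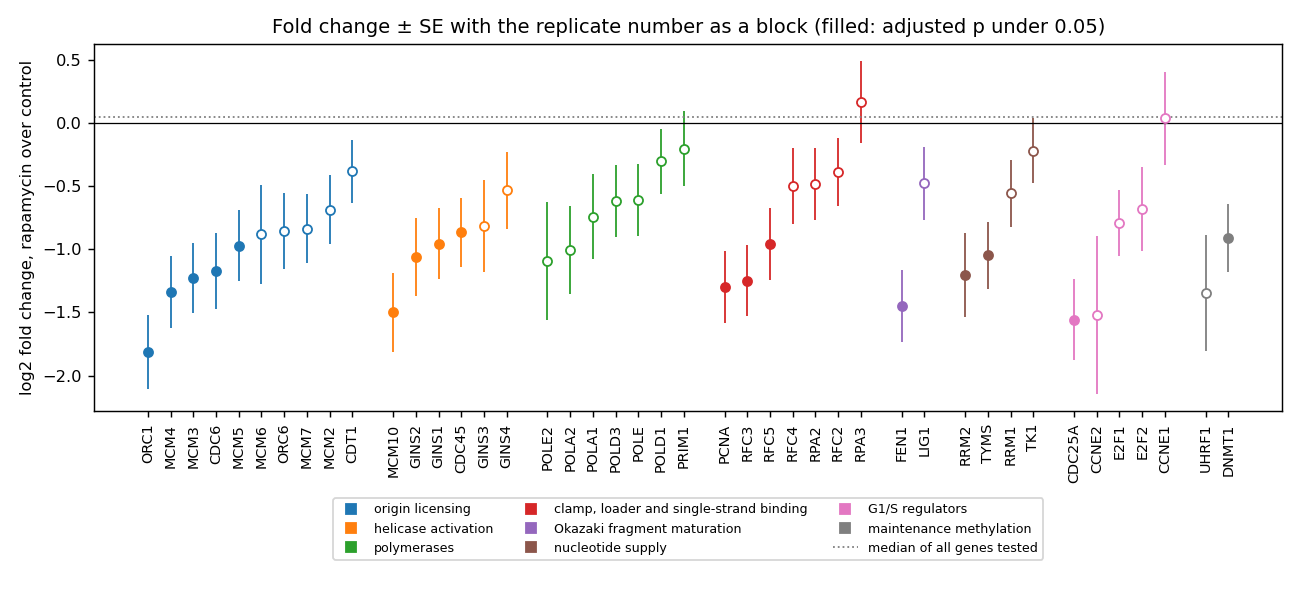
Log2 fold change of mRNA, rapamycin over control, in the paired edgeR fit for each gene, grouped by role and ordered by size. Bars are ± 1 SE, filled points have an adjusted p under 0.05, and the dotted line is the median of all genes tested (0.05). Of the 43 points 41 lie below 0, 17 of them filled, with none filled among the polymerases.

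The next comparison asked how the genes varied between the numbered pairs. All 43 genes were lower with rapamycin in the pair numbered 2 and 37 were lower in the pair numbered 1. The median difference was -0.35 in the pair numbered 1 and -1.37 in the pair numbered 2, against 0.00 and 0.03 for all genes tested. Thus 37 of the 43 genes (86.0%) were lower in both pairs, against 31.8% of all genes, and 0 were higher in both. The difference was more negative in the pair numbered 2 for 43 of 43 members, where 7819 of all 15826 genes had that order. In rapamycin 2, 38 members were below their level in rapamycin 1 (median difference -0.66), whereas in control 2, 27 members were above their level in control 1 (median 0.23). Whether the change differed between pairs could not be tested, since 1 library per number and treatment leaves no residual degrees of freedom.

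The number itself was tested in the same fit. CDC6, FEN1, RRM2 and TYMS were lower in number 2 than in number 1, and POLD3 and E2F2 were higher (4 and 2 of 43), against 20.2% of all genes lower and 17% higher. TYMS gave the largest difference in 1 direction, -1.37 ± 0.27 (edgeR, adjusted p = 0.000176), and E2F2 in the other, 1.49 ± 0.34 (adjusted p = 0.000924). FEN1 differed by -1.20 (adjusted p = 0.00165). ORC1, MCM4 and PCNA did not pass this test, with differences of 0.35, 0.01 and -0.21.

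Other genes of the cell cycle gave a setting for these values. Of 40 further replication genes, 13 fell and 0 rose in the paired fit by edgeR, where 3.5% of all genes fell, and DESeq2 called 6 lower. Of all genes, 2.54% were called lower by DESeq2. The median difference of the 40 genes was -0.43 in the pair numbered 1 and -1.04 in the pair numbered 2. In both pairs 30 of them were lower and 3 were higher. EXO1, a nuclease of DNA repair and replication, measured 28.6 and 21.4 CPM in rapamycin 1 and 2 against 54.4 and 78.1 CPM in control 1 and 2 (change -1.40 ± 0.30, edgeR adjusted p = 0.00623). TICRR, needed to activate the helicase, changed by -1.21 ± 0.27 (adjusted p = 0.00686). Further subunits of the complexes varied. ORC2, ORC3, ORC4 and ORC5 changed by -0.12, 0.11, -0.19 and -0.81, and none passed the test. RFC1, RPA1, PRIM2 and POLD2 changed by -0.16, -0.38, -0.50 and 0.05, also without passing it. POLD4, at most at 3.46 CPM, changed by 1.13 and did not pass it. POLE3 fell (-0.82, adjusted p = 0.0461), and POLE4 changed by -1.04 (0.0704). Of 20 G2 and mitosis genes, 10 fell and 0 rose (9 lower by DESeq2), and all 20 were lower in both pairs. Their median difference was -1.03 in the pair numbered 1 and -0.60 in the pair numbered 2, and only 2 of the 20 were more negative in the pair numbered 2. MKI67, the Ki-67 proliferation marker, changed by -1.41 and -1.04 in the pairs numbered 1 and 2, and BIRC5, an inhibitor of apoptosis that acts in mitosis, by -1.39 and -0.95. The S-phase and mitotic genes thus lay on opposite sides of the line of equal change, a description that was not tested.

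Of 27 genes of G1 control, 5 fell and 5 rose in the paired fit by edgeR, against 3.5% of all genes lower and 4.65% higher. DESeq2 called 4 lower and 3 higher in the paired fit, against 402 lower and 416 higher of all 15826 genes. CDKN1A, the p21 inhibitor of cyclin-dependent kinases, measured 357 and 49.8 CPM in rapamycin 1 and 2 against 142 and 14.8 CPM in control 1 and 2. It rose by 1.54 ± 0.26 on the log2 scale (edgeR, adjusted p = 0.0013) and was far higher in number 1 than in number 2 under both treatments. E2F8, a repressor among the E2F proteins, changed by -1.46 ± 0.33 (adjusted p = 0.00686). The other genes that rose were CDKN1C, RBL2, TFDP2 and CCND2, with changes of 2.90, 1.16, 0.97 and 2.27. CDKN1C was at most at 7.57 CPM, and CCND2 was at 0.16 and 0.05 CPM in rapamycin 1 and control 1. The others that fell were SKP2, TFDP1, CDKN2C and CCNA2, with changes of -1.14, -0.99, -1.42 and -0.85.

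**Figure D3:**
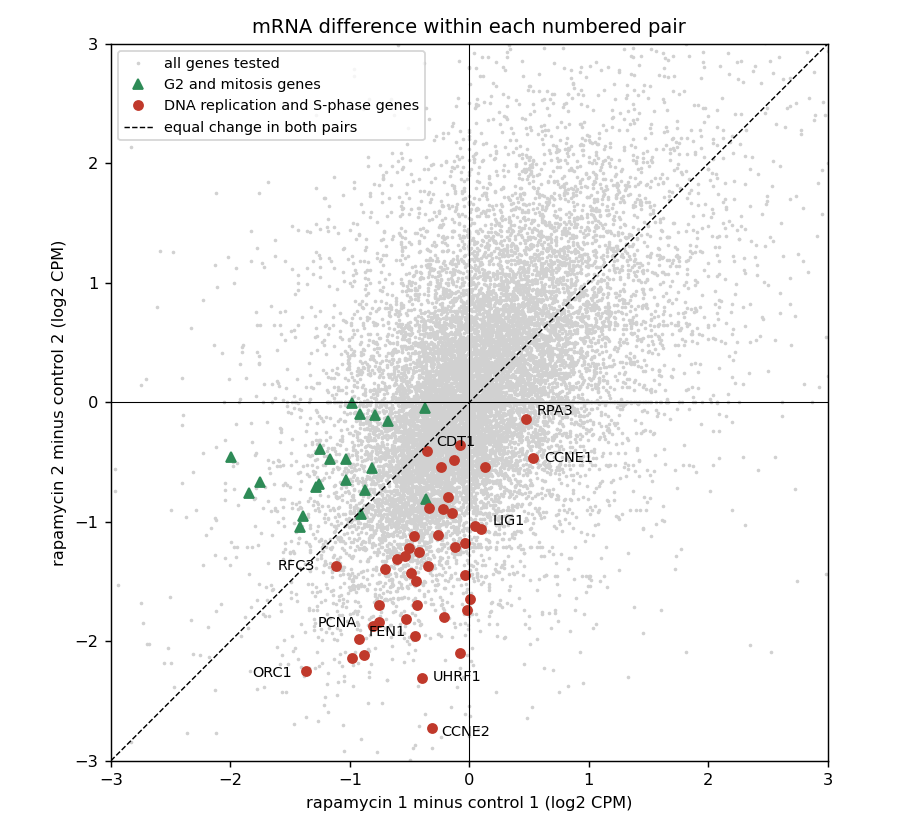
Difference in mRNA (log2 CPM, rapamycin minus control) in the pair numbered 1 (horizontal axis) and the pair numbered 2 (vertical axis), for all 15826 genes tested (grey), the 43 DNA replication and S-phase genes (red circles) and 20 G2 and mitosis genes (green triangles). The dashed line marks equal change, and points beyond 3 on either axis are not shown. All 43 red circles lie below the dashed line, and 2 of the 20 triangles do.

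The genes with E2F-type letters in the promoter window were compared with those without, as a description. The median paired change was -0.93 over the 22 genes with the letters and -0.71 over the 14 without. In the paired fit 9 of the 22 genes with the letters fell (40.9%), as did 6 of the 14 without (42.9%). Among the genes given in full, GINS1, PCNA, RFC3, TYMS, CDC25A and DNMT1 had a match in the window and fell. POLA2, POLE2, LIG1, E2F1 and UHRF1 had a match and did not pass the test. ORC1, MCM10, FEN1 and RRM2 fell and had no match in the window searched, and MCM4, which fell, had no window.

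The last question was whether mRNA of these genes carried m6A peaks and whether peaks differed with rapamycin. There was 1 immunoprecipitated library and 1 input for each line and treatment, so peaks are described without a test, and the depth behind them is unknown. Of the 43 genes, 10 (23.3%) had a peak in any of the 4 lists, against 35.4% of all genes tested, and 33 had none. In HSC3 a peak was listed for 5 genes in the control (11.6%) and 4 with rapamycin (9.30%), against 17.6% and 17.5% of all genes. In CAL33 it was listed for 7 genes in the control (16.3%) and 3 with rapamycin (6.98%), against 16.1% and 14.2%. Peak detection also depends on the amount of mRNA. In RNA-seq 5 of the 10 genes with a peak fell with rapamycin, where 17 of all 43 members (39.5%) and 3.5% of all genes tested fell. The part of mRNA level in the peak counts was not tested.

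The 10 genes held 26 peaks, 17 in control lists and 9 in rapamycin lists. The authors' annotation put 14 in a 3′ UTR, 6 in coding sequence (CDS), 3 in a 5′ UTR and 3 in an exon without further label. Peaks were between 151 and 747 bases long, and 24 of the 26 lay within the RefSeq gene. The median fold enrichment of member peaks was 14.7 in the HSC3 control (8 peaks) and 11.1 in the CAL33 control (9 peaks), against 33.6 and 42.6 for all peaks of those lists. With rapamycin it was 79.3 in HSC3 (5 peaks) and 50.7 in CAL33 (4 peaks), against 33.3 and 35.9. These medians rest on few peaks that lie partly on different genes and places, so they do not compare the same peaks between treatments. Coordinates are in hg38, counted from 1, and fold enrichment is the authors' ratio of immunoprecipitated RNA to input.

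FEN1 was the only member with a peak in all 4 lists, where 3.61% of all genes had one. Its CDS peak stood at chr11:61795812-61796289 in the HSC3 control with 21.3-fold enrichment and at chr11:61795752-61796498 in HSC3 with rapamycin at 33.8-fold. In CAL33 the CDS peak stood at chr11:61795812-61796259 in the control with 11.1-fold enrichment and at chr11:61795871-61796080 with rapamycin at 2.77-fold, so the lines moved in opposite directions. The fold enrichment of the 3′ UTR peak was higher with rapamycin in both lines, from 3.74-fold to 8.98-fold in HSC3 and from 3.67-fold to 32.2-fold in CAL33. The log10 p from the authors' peak calling was weaker with rapamycin, going from -33.2 to -22.3 in HSC3 and from -29.2 to -6.58 in CAL33. With rapamycin the interval was chr11:61796975-61797214 in either line, and it shared 180 bases with the control peak of that line. A 5′ UTR peak was listed only in the controls, at 9.41-fold in HSC3 and 17.3-fold in CAL33, and both began within 35 bases before the RefSeq gene start. For scale, the ratio of rapamycin to control over all overlapping peaks had a median of 0.914 in HSC3 (1219 pairs of peaks) and 0.713 in CAL33 (1035), with quartiles of 0.277 and 2.91 in HSC3 and 0.242 and 2.52 in CAL33. The ratio of the FEN1 CDS peak was 1.59 in HSC3 and 0.250 in CAL33, both between those quartiles, and that of the 3′ UTR peak was 2.40 in HSC3, also between them, and 8.77 in CAL33, above the upper quartile.

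**Figure D4:**
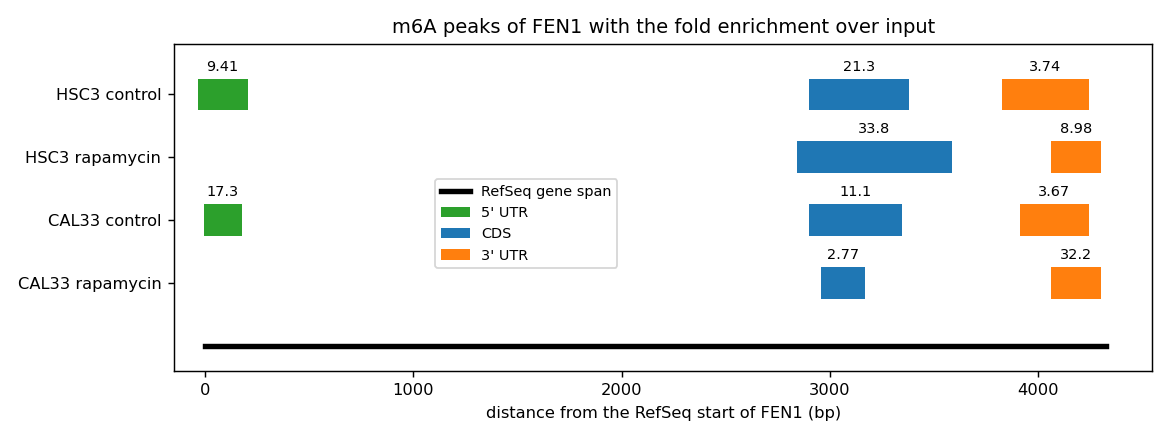
m6A peaks of FEN1 in each line and treatment, drawn to scale by distance from the RefSeq start of the gene (bp), with the fold enrichment over input above each bar and colours for the annotated region. The black bar is the RefSeq gene span. The CDS and 3′ UTR peaks are present in all 4 lists and the 5′ UTR peak in the controls only.

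UHRF1 had a 3′ UTR peak in 3 lists. In CAL33 it stood at chr19:4961466-4961705 with 12.4-fold enrichment in the control and at chr19:4961466-4961675 with 69.2-fold with rapamycin, a ratio of 5.58, above the upper quartile of all overlapping peaks. In HSC3 it was listed in the control at 2.42-fold and was not listed with rapamycin. GINS2 had 3′ UTR peaks in CAL33 at 42.6-fold in the control and 102-fold with rapamycin, but these shared only 1 base (chr16:85677725-85677964 and chr16:85677964-85678144).

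Among the licensing genes, MCM3 had a 3′ UTR peak in both controls (20-fold in HSC3 and 5.22-fold in CAL33, sharing 151 bases from chr6:52264218) and in neither rapamycin list. CDT1 had peaks in HSC3 only, in the CDS at 6.47-fold and the 3′ UTR at 29.4-fold in the control and at another place of the 3′ UTR at 134-fold with rapamycin. MCM5 had an exonic peak of 79.3-fold in HSC3 with rapamycin and of 15.4-fold in the CAL33 control. ORC1 had a CDS peak of 4.97-fold in the CAL33 control alone. GINS3 gave the highest enrichment of the 26 peaks, an exonic peak of 269-fold at chr16:58404737-58404946 in the HSC3 control, with no peak in the other lists. It stood at percentile 92.5 of its list, and the CDT1 peak of 134-fold at percentile 88.1. E2F2 had a 3′ UTR peak of 112-fold in HSC3 with rapamycin, and RPA2 a 5′ UTR peak of 5.67-fold in the CAL33 control, the only 1 of the 26 with a false discovery rate above 0.05. Of the members, 4 thus had peaks in control lists alone (MCM3, ORC1, GINS3 and RPA2), 1 in a rapamycin list alone (E2F2) and 5 in both kinds.

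**Figure D5:**
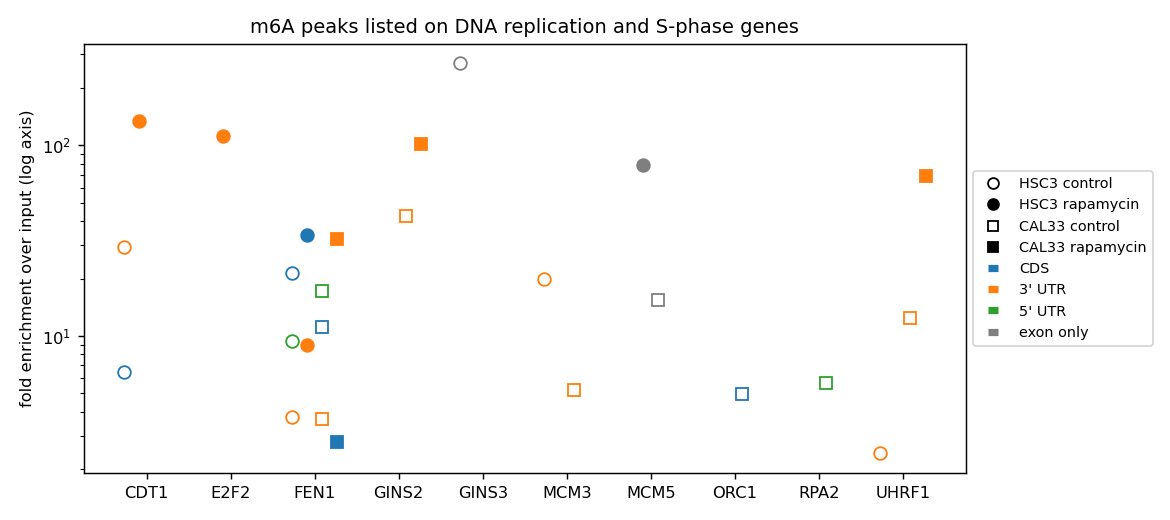
Fold enrichment over input (log axis) of each m6A peak listed on the 10 genes with a peak. Circles are HSC3 and squares CAL33, open symbols controls and filled symbols rapamycin, and colours give the annotated region. FEN1 has the most peaks, and the 17 control peaks run from 2.42-fold to 269-fold and the 9 rapamycin peaks from 2.77-fold to 134-fold.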

How the data were processed

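RNA-seq and MeRIP-seq values of OSCC cell lines were used as deposited. For RNA-seq the authors deposited raw counts per Ensembl gene in 1 table of 4 libraries made with a stranded mRNA kit, and all value columns were mapped to samples by their names. The submitters' processing notes name cutadapt 2.5, HISAT2 2.1.0, featureCounts 1.6.3, HOMER 4.10.4 and hg38, with no role or order, while the table's name refers to HTSeq. The annotation version, the strand setting of counting and the peak caller's settings are not given in the sources used here, and read assignment to overlapping genes or copies can shift a gene's count. The peak lists, which the authors deposited for every line and treatment of MeRIP-seq, were called on single pairs of libraries made from RNA fragments, with the fold enrichment as a ratio over input. Per the file headers, the lists also hold log10 p-values and log10 false discovery rates. These were used only to find peaks above 0.05 and to describe the 3′ UTR peak of FEN1.

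The 43 genes and the other lists were chosen with earlier results of these data known. Counts were tested in R 4.3.3 with edgeR 4.0.16 (filterByExpr, TMM scaling, glmQLFit with robust estimation, glmQLFTest, two-sided, Benjamini-Hochberg over 15826 genes, threshold 0.05). The code was also run on simulated counts whose changes were equal in both pairs. The members' changes were not equal, so that run does not show how the tests behave for them. Levels are TMM-scaled CPM, and log2 differences within pairs used a prior count of 2. The depth of 18492273 to 23763098 counts gave between 109 and 20044 counts per member and library. The model held treatment alone, and a second fit added the replicate number as a block. The pairing comes from the titles, whose numbers mark the cell lines in MeRIP-seq. Over all genes the number 1 minus number 2 differences of the rapamycin and control libraries correlated at r = 0.90, and log2 CPM of same-numbered libraries at 0.97 and 0.96 against 0.76 to 0.81 for other pairs of libraries. Values in full are given for the 2 members of each role with the smallest p in the paired fit. From each other list 2 genes are described by the same order, and some further genes are named with their change. Alternatives were DESeq2 1.42.0, upper-quartile scaling, no count filter, at least 10 counts in every library, leaving out each library, no treatment term for the number, and for peaks a false discovery rate limit, a fold enrichment of at least 4, an overlap of 50% of the shorter peak and genes in place of peaks. Promoter windows and gene positions came from RefSeq (GRCh38.p14). Figures were drawn in Python 3.11.15 with pandas 2.3.3 and matplotlib 3.10.9.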

Additional observations from a re-analysis of the deposited data

Results flagged for a closer look

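The 6 genes below had rapamycin above control in 1 numbered pair and below it in the other. With 1 library per number and treatment, the difference between pairs was not tested. The log2 difference in mRNA (rapamycin minus control) of GINS3 was 0.00427 in the pair numbered 1 and -1.65 in the pair numbered 2. That of LIG1 was 0.101 and -1.06, and that of RFC4 was 0.0445 and -1.04. PRIM1 gave 0.135 and -0.542, CCNE1 gave 0.537 and -0.465, and RPA3 gave 0.477 and -0.138. All 6 were thus higher in the pair numbered 1 and lower in the pair numbered 2, and GINS3 and RFC4 were close to 0 in the pair numbered 1.

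The CDS peak of FEN1 moved in opposite directions in the lines. The log2 ratio of its fold enrichment, rapamycin over control, was 0.666 in HSC3 and -2.0 in CAL33, a difference that was not tested since each value came from 1 pair of libraries.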

How the results depend on the processing

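Without the replicate block 0 members were called lower. The paired fits with the replicate block called 17 by edgeR with TMM scaling, 11 by DESeq2, 10 with upper-quartile scaling and 16 with at least 10 counts in every library, and DESeq2 without the block called 1. No fit called a member higher with rapamycin. The median change ranged from -1.18 to -0.47 when a library was left out. Those fits have no block, and that model called no gene even with all libraries, so their calls say nothing on stability. LIG1 reversed without rapamycin replicate 2, at 0.0016, and ranged from -1.01 to 0.0016. All 16 genes given in full varied by over 1.5 times between left-out libraries, for example UHRF1 from -2.38 to -0.37, RRM2 from -2.14 to -0.34, TYMS from -2.02 to -0.30, POLE2 from -1.82 to -0.37 and FEN1 from -2.38 to -0.65. RFC3 ranged from -1.54 to -1.02. For number 2 against number 1, 4 members were lower and 2 higher, against 8 lower with upper-quartile scaling, 1 higher by DESeq2, and 0 lower and 1 higher without the treatment term. The cause of these moves was not tested. Member peaks shared between control and rapamycin went from 2 to 1 in HSC3 and from 4 to 2 in CAL33 with a fold enrichment of at least 4. For the genes given in full, 40 of 191 alternatives passed the threshold that the unpaired value had missed, and besides LIG1 none changed direction. Fits that leave out a library with the block, or for the number, could not be made because no residual degrees of freedom remain. DESeq2 gave no adjusted p for POLE2 without the block. The conflicting cell line labels and 2 libraries per group limit the RNA-seq comparison, and unknown depth and single libraries limit the peaks.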
